A study of Mus musculus with 12 samples.

Results

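A set of 10 immediate early genes was followed in mouse oligodendrocyte precursor cells (OPCs), the dividing cells that give rise to myelinating oligodendrocytes. They were the 4 EGR genes (Egr1, Egr2, Egr3 and Egr4), the 3 NR4A genes (Nr4a1, Nr4a2 and Nr4a3), Arc, Ier2 and Ier3. These 10 genes, of 45563 gene symbols in the tables, were chosen by name, from earlier results of the same libraries in which early-response genes were lower in unstimulated TNFR2-/- OPCs. The values that guided that choice were the levels in the unstimulated libraries, and the genotype difference without cytokines is therefore given below as a description, with no test.

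OPCs came from cortices of C57BL/6 pups at postnatal days 2 to 5, either wild type (WT) or labeled TNFR2-/-, a germline deletion of the receptor for TNF that is encoded by Tnfrsf1b. PDGFRα+ cells were taken with magnetic beads and kept for 3 days with PDGF-AA and FGF2. They then received PBS (NS) or TNF, IFNγ and IL1β, each at 25 ng/mL, for 3 h (St). The 4 groups, WT NS, WT St, TNFR2-/- NS and TNFR2-/- St, held 3 libraries each (cultures 2, 3 and 4 for WT, and 2, 4 and 5 for TNFR2-/-), with 26870251 to 30316546 read pairs on genes per library. Both growth factors that all groups received signal through receptor tyrosine kinases, a route that induces early-response genes in many cells. Times other than 3 h were not analysed here.

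The targeted gene went against the labels. Tnfrsf1b had 12 to 24 reads in the WT NS libraries and 213 to 346 in those labeled TNFR2-/- NS, and 61 to 145 reads in WT St against 282 to 356 in TNFR2-/- St. Where in the gene these reads lie was not analysed here, and every direction between genotypes below rests on the labels. OPC markers (Pdgfra, Cspg4, Olig1, Olig2, Sox10 and Ptprz1) summed to 6278 to 8952 RPM (reads scaled to a common library total), and 9 microglia markers to at most 1.92, with Ptprc at 0 to 2 reads per library. Astrocyte markers differed by genotype, at 1875 to 2239 RPM in the 6 WT libraries and 2801 to 4529 in the 6 labeled TNFR2-/-. The highest were those of TNFR2-/- culture 5, where Gfap had 10491 (NS) and 10010 (St) reads against 889 to 1926 in the other TNFR2-/- libraries. In bulk RNA, fewer cells of a type and less RNA per cell cannot be told apart.

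Immediate early genes are transcribed within minutes of a stimulus from factors already present in the cell, without new protein, and their RNA is short-lived. SRF with its ETS partners, CREB and NF-κB are the main factors that switch them on. EGR proteins are zinc-finger factors that bind GC-rich sites, and some of them are held in check by the corepressors Nab1 and Nab2. NR4A proteins are orphan nuclear receptors that act without a known hormone, alone or with retinoid X receptors. Egr2 is best known in glia for driving myelination in Schwann cells, the myelinating cells of peripheral nerve. Arc is a cytoplasmic protein of neuronal synapses, Ier2 a small nuclear protein, and Ier3 a regulator of cell survival that is a known NF-κB target.

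In the GENCODE annotation (M21, GRCm38), most of the 10 genes were short. Their median span was 5287 bases against 24780 over 14086 protein-coding genes tested, and their median of the largest exon number was 3 against 9. The shortest was Ier3, at 1240 bases on chromosome 17 (35821684 to 35822923, plus strand), and the longest Nr4a3, at 41295 bases on chromosome 4 (48045153 to 48086447, plus strand). Egr2 lies on chromosome 10 (67535475 to 67542188, plus), Egr3 on chromosome 14 (70077203 to 70082614, plus) and Egr4 on chromosome 6 (85511121 to 85513589, minus). Nr4a1 lies on chromosome 15 (101254269 to 101274795, plus), as does Arc (74669083 to 74672570, minus). Nr4a2 is on chromosome 2 (57106830 to 57124003, minus) and Ier2, with a single exon, on chromosome 8 (84661331 to 84662852, minus). The AU-rich letters TATTTAT, a class of motif known to shorten the life of early-response RNAs, occurred in the 3′ UTR of 3 members (4 times in Ier3, 2 times in Nr4a3 and 1 time in Nr4a2), against 30.6% of 14016 genes.

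Upstream sequence was available for 6 members (Egr2, Egr4, Nr4a1, Nr4a2, Nr4a3 and Ier3). The 4 windows shown (RefSeq, GRCm38.p6) are those of the 3 genes that rose in both genotypes and of Nr4a1, the gene that fell most. Each holds up to 250 bases before a transcription start, 5′ to 3′ on the gene's strand, without bases annotated as exon. Capitals mark TGACG, the core of the site that CREB binds, on either strand (CGTCA on the other), the CArG box bound by SRF, the κB site bound by NF-κB, and GCGGGGGCG, an EGR site.
Egr2 (chr10:67537619-67537868, plus): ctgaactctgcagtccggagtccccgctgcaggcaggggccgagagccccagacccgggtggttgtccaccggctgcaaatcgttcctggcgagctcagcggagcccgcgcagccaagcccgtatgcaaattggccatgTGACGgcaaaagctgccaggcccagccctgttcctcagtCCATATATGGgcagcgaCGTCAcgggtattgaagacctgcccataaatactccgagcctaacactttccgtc
Ier3 (chr17:35821463-35821683, plus): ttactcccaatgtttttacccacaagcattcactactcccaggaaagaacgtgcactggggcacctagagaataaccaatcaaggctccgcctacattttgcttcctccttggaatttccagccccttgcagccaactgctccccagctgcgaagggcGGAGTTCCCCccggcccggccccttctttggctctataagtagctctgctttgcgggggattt
Nr4a2 (chr2:57124004-57124253, minus): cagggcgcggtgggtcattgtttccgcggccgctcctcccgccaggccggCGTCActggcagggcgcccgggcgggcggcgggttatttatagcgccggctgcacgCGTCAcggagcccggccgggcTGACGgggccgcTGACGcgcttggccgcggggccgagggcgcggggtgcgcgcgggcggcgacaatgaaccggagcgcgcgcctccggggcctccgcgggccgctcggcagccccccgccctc
Nr4a1 (chr15:101266596-101266845, plus): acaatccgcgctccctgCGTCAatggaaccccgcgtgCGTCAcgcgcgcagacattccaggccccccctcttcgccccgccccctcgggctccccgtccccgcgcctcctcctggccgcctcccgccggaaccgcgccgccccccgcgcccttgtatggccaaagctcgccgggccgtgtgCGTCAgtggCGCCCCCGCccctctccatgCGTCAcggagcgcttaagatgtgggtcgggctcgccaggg
The Egr2 window held a CArG box that began 72 bases before the start, and 2 TGACG. The Ier3 window held a κB site that began 92 bases before the RefSeq start, and no TGACG. That start lies past the end of the Ier3 sequence shown, since bases annotated as exon were left out. Nr4a2 and Nr4a1 each had 4 TGACG, and Nr4a1 also had the EGR letters GCGGGGGCG. Over both strands of 32851 windows of 250 bases, TGACG occurred in 17.8% (5 of the 6 members), a CArG box in 1.47% (1 of 6, Egr2), a κB site in 6.75% (3 of 6: Egr2 at another start, Egr4 and Ier3) and GCGGGGGCG in 2.57% (1 of 6). None of the 6 held the full CRE TGACGTCA, which contains TGACG and occurred in 1.55% of windows, the AP-1 site TGACTCA (4.46%), the second EGR site GCGTGGGCG (0.536%), the NR4A site AAAGGTCA (1.34%) or the STAT letters TTCNNNGAA (7.02%). TATAAA occurred in 12.4% of windows and in that of Nr4a2. These shares are per window, and the windows came from 27025 genes, while a member was counted if any of its windows held the letters. Egr2 had more than 1 window, of which 1 is shown, so its count and the shares are not like for like.

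To compare levels between genes, RPM were divided by the annotated exon length in kilobases (RPM per kb of exon). On this scale Egr1 was the most abundant member in WT NS OPCs, at 78.0 ± 17.4 (SD, n = 3). It was followed by Ier2 at 33.0 ± 7.22 and Nr4a1 at 26.6 ± 1.62, whose libraries overlapped. Egr2 (13.9 ± 3.86), Ier3 (12.7 ± 2.77), Arc (10.8 ± 0.70), Nr4a2 (9.48 ± 1.96) and Nr4a3 (7.17 ± 0.84) formed a run in which each gene's libraries overlapped those of the next. Egr4 (3.29 ± 0.46) and Egr3 (2.02 ± 0.37) were lowest. After 3 h of cytokines the order changed, and Ier3 led in both genotypes, at 104.6 ± 24.2 in WT St and 131.6 ± 9.02 in TNFR2-/- St. In WT St, Egr1 (42.0 ± 3.56) and Egr2 (41.1 ± 3.13) stood next with overlapping libraries, while in TNFR2-/- St Egr2 (42.5 ± 3.23) was above Egr1 (32.3 ± 1.98) in every library. Among the NR4A genes Nr4a1 had the highest mean without cytokines and Nr4a2 with them, at 22 ± 4.14 against 8.29 ± 0.23 for Nr4a1 in WT St and 12 ± 3.35 against 6.28 ± 1.72 in TNFR2-/- St. In TNFR2-/- St the libraries of Nr4a2 (8.58 to 15.3) overlapped those of Nr4a3 (7.24 to 11.2), so these 2 genes could not be ordered there.

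**Figure D1:**
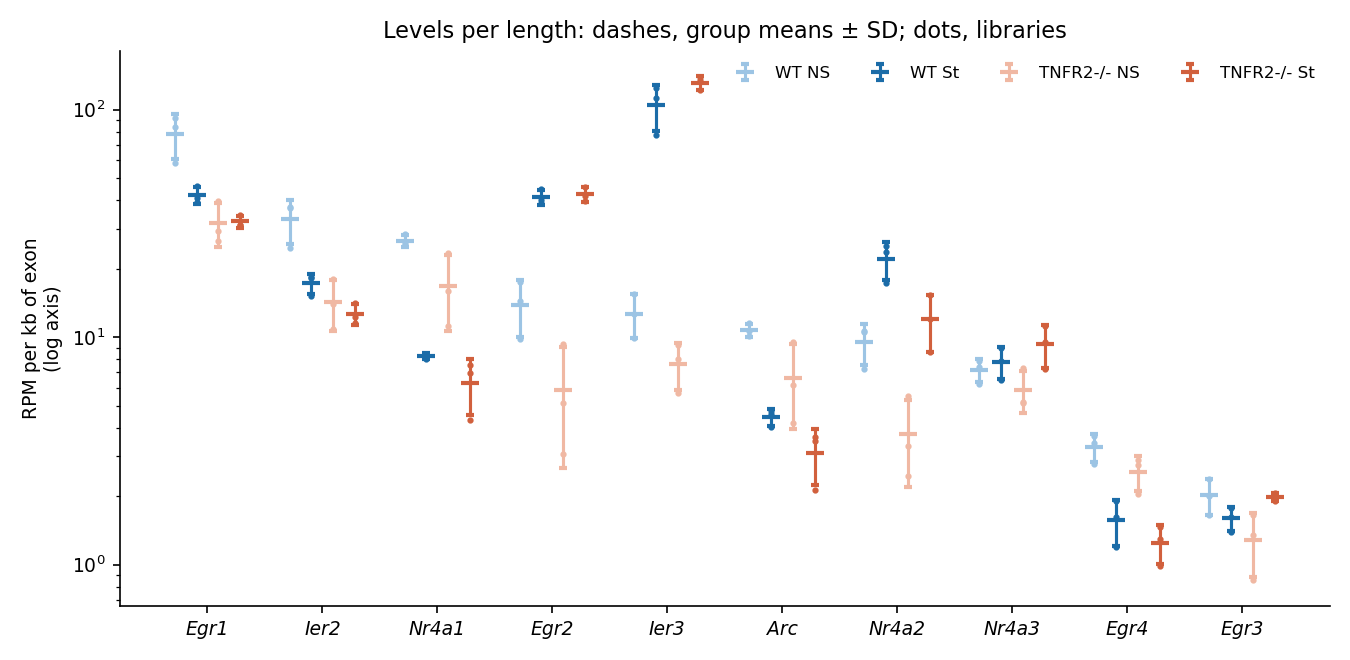
Level of each gene per length, in RPM per kb of annotated exon on a log axis, in the 4 groups. Dashes with bars are means ± SD of 3 libraries and dots are libraries. Ier3 moves from the middle of the order without cytokines to the top with them (104.6 in WT St and 131.6 in TNFR2-/- St), and Egr1 leads in WT NS (78.0).

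The first question was how each gene stood after 3 h of cytokines in WT OPCs. The 10 genes did not move as a group. Of the 10, 3 rose (Egr2, Nr4a2 and Ier3), 5 fell (Egr1, Egr4, Nr4a1, Arc and Ier2) and 2 did not pass the test (Egr3 and Nr4a3). Among all 18081 genes tested, 4.58% were called higher and 2.95% lower in WT St. The median difference of the members was -0.60 on the log2(FPKM + 0.5) scale, against -0.05 over all genes. Differences are from limma, and a gene was called at an adjusted p of at most 0.05 (Benjamini-Hochberg over all genes), a change of at least 1.5-fold and a mean of at least 1 FPKM. All values below for single genes are in FPKM as deposited, which serve only to compare libraries for the same gene. The NS libraries on which these responses also rest are those whose levels were known when the genes were chosen. A choice of genes lower in TNFR2-/- NS than in WT NS can lower the WT responses and raise the TNFR2-/- ones. How far it moved the responses and their p-values was not tested.

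In TNFR2-/- OPCs the same question gave 5 genes that rose (Egr2, Egr3, Nr4a2, Nr4a3 and Ier3), 3 that fell (Egr4, Nr4a1 and Arc) and 2 that did not pass (Egr1 and Ier2). Over all genes tested, 5.41% were called higher and 4.68% lower. The members' median difference was 0.34, against -0.11 over all genes. Arc, Egr3 and Nr4a3 lost their calls without TNFR2-/- St replicate 5, which left 5 members called, and Egr3 and Nr4a3 lost theirs without both libraries of culture 5, which left 6. The neuronal marker sum was 868 to 956 RPM without and 1105 to 1156 with cytokines in WT, and 777 to 784 without and 1098 to 1184 with them in TNFR2-/-. Of the 7, Tubb3 was called higher and Snap25 lower in both genotypes. OPC markers summed to 7516 to 8952 in the NS libraries and 6278 to 7381 in the St libraries. Their part in the responses was not tested.

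**Figure D2:**
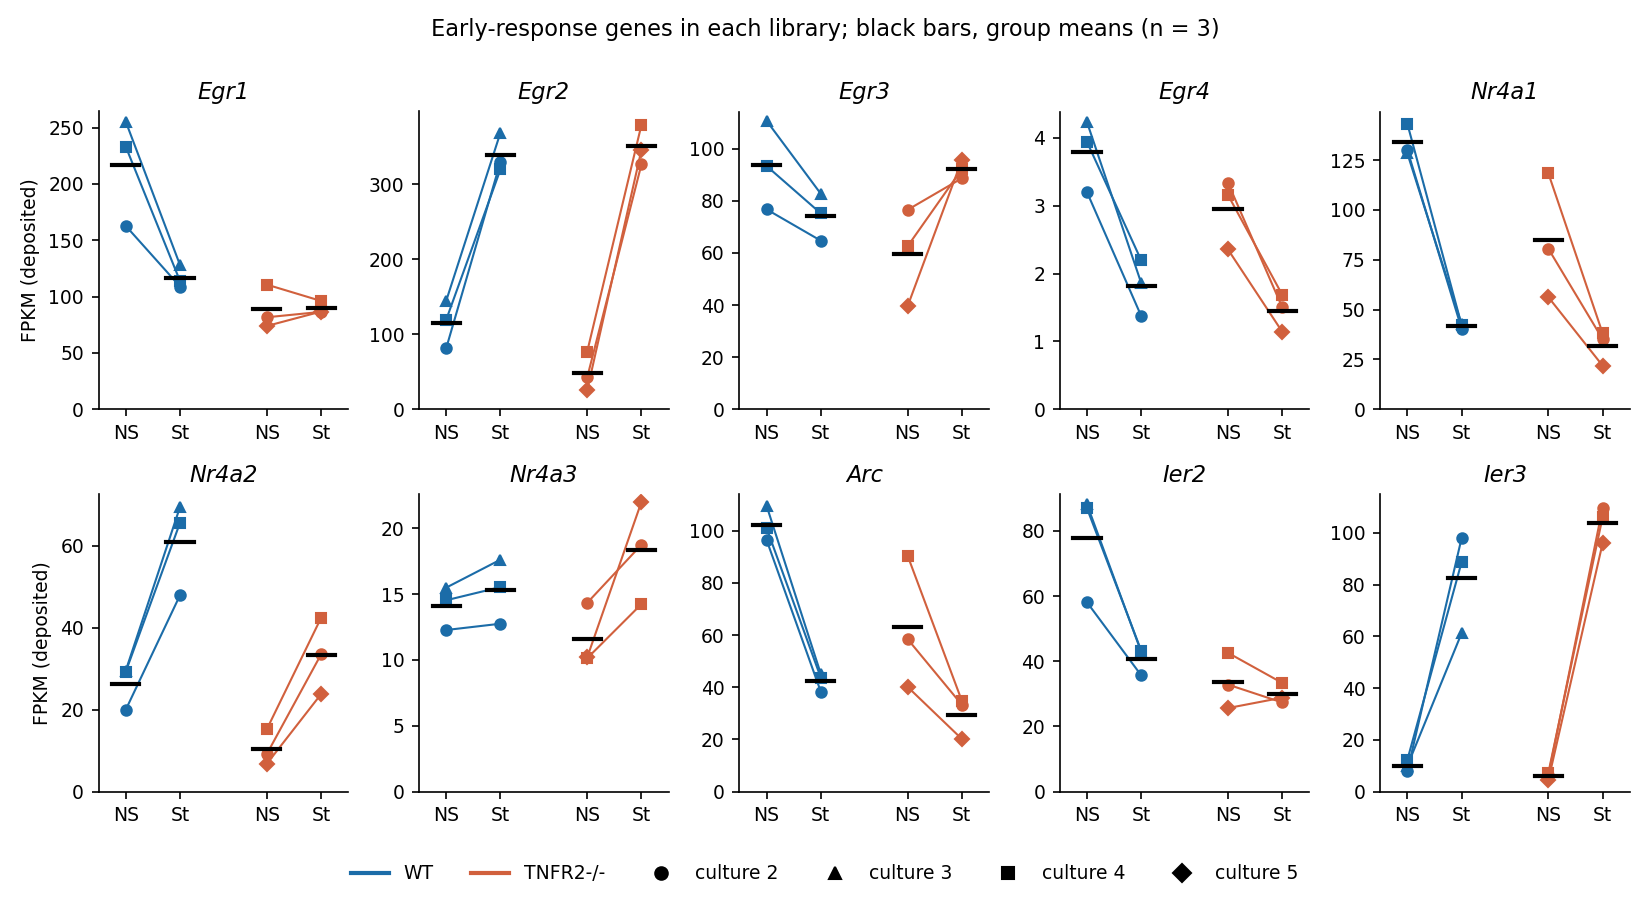
FPKM of each gene in all 12 libraries, with lines joining the NS and St libraries of a culture and black bars for group means (n = 3). Egr2, Nr4a2 and Ier3 rise and Egr4, Nr4a1 and Arc fall in all 6 cultures, while Egr3 falls in the 3 WT cultures and rises in the 3 TNFR2-/- cultures.

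Ier3, the survival regulator, had the largest rise of the 10 genes. It was at 7.86, 9.95 and 12.2 FPKM in WT NS cultures 2, 3 and 4, and at 97.9, 61.2 and 88.6 in the same cultures with cytokines. The log2 difference was 2.98 ± 0.21 (SE, limma adjusted p = 3.86e-06), a 7.87-fold rise. In TNFR2-/- OPCs it went from 6.31, 7.31 and 4.49 (cultures 2, 4 and 5) to 109.7, 106.1 and 96.0, a log2 difference of 4.02 ± 0.21 (adjusted p = 3.4e-07) or 16.2-fold. NS and St libraries were far apart in both genotypes, and the St libraries of the genotypes overlapped.

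Egr2 was the only EGR gene that rose in WT OPCs. WT NS cultures 2, 3 and 4 had 81.1, 144.3 and 119.0 FPKM, and WT St had 329.5, 368.3 and 319.4, a log2 difference of 1.60 ± 0.33 (adjusted p = 0.00714). TNFR2-/- cultures 2, 4 and 5 went from 42.4, 76.8 and 25.3 to 326.4, 379.0 and 345.6, a log2 difference of 2.99 ± 0.33 (adjusted p = 8.19e-05). The NS levels of the genotypes did not overlap, whereas their St levels did. The fold from the log2 difference was 3.02 in WT and 7.95 in TNFR2-/- OPCs.

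Nr4a2 (Nurr1), known for its part in dopamine neurons, rose from 20.01, 29.6 and 29.3 FPKM to 48.0, 69.5 and 65.6 in WT cultures 2, 3 and 4. The log2 difference was 1.20 ± 0.30 (adjusted p = 0.0186). This call was lost without WT NS replicate 2 (1.02, adjusted p = 0.0752), without WT St replicate 3 (1.10, adjusted p = 0.0661) and without WT St replicate 4 (1.14, adjusted p = 0.0661). In TNFR2-/- cultures 2, 4 and 5 it rose from 9.20, 15.2 and 6.80 to 33.5, 42.4 and 23.8, by 1.66 ± 0.30 (adjusted p = 0.00216). Every TNFR2-/- library was below every WT library of the same condition.

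Nr4a1 (Nur77), the sister receptor, went the other way. It fell from 130.2, 128.5 and 143.3 FPKM to 40.4, 42.6 and 42.3 in WT cultures 2, 3 and 4, a log2 difference of -1.67 ± 0.25 (adjusted p = 0.000979). In TNFR2-/- cultures 2, 4 and 5 it fell from 80.5, 118.4 and 56.2 to 35.1, 38.1 and 21.8, a difference of -1.38 ± 0.25 (adjusted p = 0.00241). Arc followed the same course, from 96.5, 109.6 and 101.04 to 38.3, 45.1 and 43.7 in WT (-1.26 ± 0.27, adjusted p = 0.0083). In TNFR2-/- OPCs Arc went from 58.5, 90.5 and 40.2 to 33.3, 34.8 and 20.2 (-1.05 ± 0.27, adjusted p = 0.0156), a call lost without TNFR2-/- St replicate 5 (-0.80, adjusted p = 0.0507). The NS and St libraries of each genotype lay apart for both genes.

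Egr4, an EGR gene of low abundance, fell in both genotypes. WT cultures 2, 3 and 4 went from 3.20, 4.23 and 3.94 FPKM to 1.37, 1.86 and 2.20 (-0.90 ± 0.18, adjusted p = 0.0054). TNFR2-/- cultures 2, 4 and 5 went from 3.34, 3.16 and 2.35 to 1.503, 1.69 and 1.14 (-0.83 ± 0.18, adjusted p = 0.00631). These values stood on 61 to 220 reads per library. Per culture the difference ran from -1.004 to -0.72 in WT and from -0.94 to -0.74 in TNFR2-/- OPCs on the log2 scale. The responses of the genotypes differed by 0.08 ± 0.25, with the SE of a fit that left the pairing of cultures out.

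Egr1 and Ier2 passed the test in WT OPCs alone. Egr1, the archetype of the EGR family, was at 162.7, 255.2 and 233.0 FPKM in WT NS and at 108.9, 127.9 and 113.7 in WT St (-0.87 ± 0.18, adjusted p = 0.00658). In TNFR2-/- cultures 2, 4 and 5 it stood at 81.6, 110.6 and 73.8 without and 86.4, 96.1 and 86.6 with cytokines (0.04 ± 0.18, adjusted p = 0.908), where the libraries overlapped. Ier2 was at 58.1, 88.2 and 87.0 in WT NS and 35.7, 42.9 and 43.3 in WT St (-0.91 ± 0.20, adjusted p = 0.0097). In TNFR2-/- OPCs it was at 32.9, 42.6 and 25.7 in NS and 27.4, 33.4 and 28.8 in St (-0.15 ± 0.20, adjusted p = 0.635). For both genes, each TNFR2-/- NS library was already below all 3 WT NS libraries, and each WT St library was above all 3 TNFR2-/- St libraries. Whether the responses of the genotypes differ was not tested for these genes.

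Egr3 and Nr4a3 passed in TNFR2-/- OPCs alone, and the difference between genotypes was again not tested. Egr3, a close relative of Egr2, was at 76.8, 110.8 and 93.4 FPKM in WT NS and 64.7, 82.7 and 75.2 in WT St (-0.32 ± 0.21, adjusted p = 0.379). In TNFR2-/- cultures 2, 4 and 5 it rose from 76.6, 62.6 and 39.6 to 88.7, 92.2 and 95.7 (0.68 ± 0.21, adjusted p = 0.0383). Without both libraries of culture 5 the difference was 0.38 (adjusted p = 0.164). The call was also lost when any of 7 single libraries was left out. Of these, TNFR2-/- culture 4 gave adjusted p = 0.058 for its NS and 0.0885 for its St library, culture 5 gave 0.087 and 0.0894, and culture 2 gave 0.0725 for its St library. The other two were the NS (0.0547) and St (0.0551) libraries of WT culture 4. Nr4a3 (Nor1) was nearly level in WT, from 12.3, 15.5 and 14.5 to 12.7, 17.6 and 15.5 (0.11 ± 0.19, adjusted p = 0.785). In TNFR2-/- OPCs it went from 14.3, 10.1 and 10.2 to 18.7, 14.2 and 22 (0.64 ± 0.19, adjusted p = 0.0288), with culture 4 with cytokines just below culture 2 without. Without culture 5 it was 0.42 (adjusted p = 0.200), and the call was lost without TNFR2-/- NS replicate 4 (adjusted p = 0.0888), NS replicate 5 (0.0858), St replicate 2 (0.076) or St replicate 5 (0.094).

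**Figure D3:**
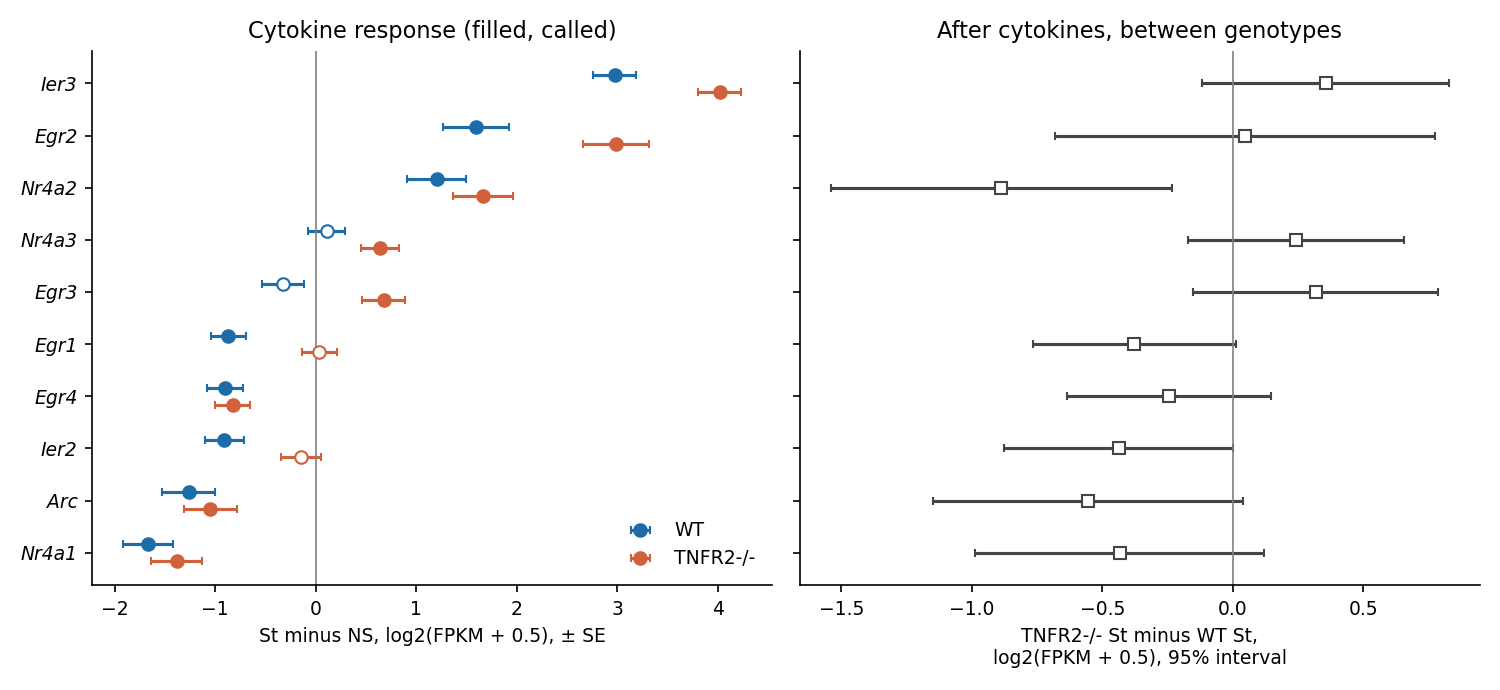
Left, St minus NS on the log2(FPKM + 0.5) scale for each gene in WT and TNFR2-/- OPCs, with SE bars and filled points for called genes. Right, TNFR2-/- St minus WT St with 95% intervals, none of them called; Nr4a2 has the largest difference (-0.89), with an interval of -1.54 to -0.23.

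After cytokines, none of the 10 genes was called between genotypes, where 1.80% of all genes tested were. At an unadjusted p under 0.05, 2 of the 10 passed, against 26.7% of all genes. The members' median was -0.31 (all genes, -0.003). Nr4a2 had the largest difference, -0.89 ± 0.30 (limma adjusted p = 0.0936), and it was called by array-weighted limma (adjusted p = 0.0494) and by voom on recovered reads (adjusted p = 0.0447). Egr2 differed by 0.05 with a 95% interval of -0.68 to 0.77, and Ier3 by 0.36 with an interval of -0.12 to 0.83. In all, 5 genes (Egr1, Nr4a1, Nr4a2, Arc and Ier2) were lower in every TNFR2-/- St library than in any WT St library, a pattern in 17.3% of all genes tested, and 1 gene (Egr3) was higher in every one (15.4%). The St libraries came from the same cultures as the NS libraries that guided the choice of genes. Same-numbered NS and St libraries deviated together (r = 0.338 to 0.649), so these counts and the median are not independent of that choice. Without both libraries of culture 5, the median was -0.16 and Nr4a2 stood at -0.67 (adjusted p = 0.171). Astrocyte markers summed to 1875 to 1948 RPM in WT St and 2852 to 4496 in TNFR2-/- St. Of these 8 markers, Slc1a3 (0.69) and Slc1a2 (1.01) were called higher in TNFR2-/- St. Mural and fibroblast markers summed to 518 to 1221 RPM in WT St and 139 to 694 in TNFR2-/- St, lowest in culture 5. OPC markers summed to 6278 to 7273 and 6920 to 7381, and of these Pdgfra was called lower in TNFR2-/- St (-0.60). The other OPC markers were not called and ran from -0.19 (Cspg4) to 0.19 (Ptprz1). The part of these markers in the differences was not tested.

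Without cytokines, all 10 genes had lower means in TNFR2-/- OPCs, the pattern for which they were chosen. The log2 differences ran from -0.29 ± 0.19 for Nr4a3 and -0.32 ± 0.18 for Egr4 to -1.35 ± 0.33 for Egr2 and -1.35 ± 0.30 for Nr4a2, with Egr1 at -1.28 ± 0.18 and Ier2 at -1.20 ± 0.20. The median was -0.74, against 0.04 over all genes. In 8 of 10 the groups did not overlap, with TNFR2-/- lower (14.3% of all genes tested). Nr4a3 and Egr4 were the members whose groups overlapped. This count describes the choice of the genes and supports nothing.

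The unstimulated values also varied within genotypes. TNFR2-/- NS replicate 5 was the lowest of the 6 NS libraries for 9 of the 10 genes, and TNFR2-/- NS replicate 4 for Nr4a3. WT NS replicate 3 was the highest for 8 genes and WT NS replicate 4 for Nr4a1 and Ier3. Without TNFR2-/- NS replicate 5 the median difference was -0.50, and without TNFR2-/- NS replicate 4, the highest TNFR2-/- NS library for 7 of the 10 genes, it was -1.03. WT NS replicate 3 had the fewest read pairs on genes (26870251). TNFR2-/- NS replicate 5 had the highest astrocyte marker sum of the NS libraries (4529 RPM), where WT NS ran from 1950 to 2239 and TNFR2-/- NS from 2801. Neuronal markers summed to 868 to 956 RPM in WT NS and 777 to 784 in TNFR2-/- NS, which did not overlap, and mural and fibroblast markers to 415 to 1351 and 207 to 810, which did. Mitochondrial reads were 5.25% and 5.98% of the libraries in WT NS replicate 3 and TNFR2-/- NS replicate 5, within the range of 4.99% to 6.22% over the series. The part of these measures in the levels was not tested.

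The responses of single cultures, St minus NS on the log2 scale, lay apart between genotypes for Egr1, Egr2, Egr3, Nr4a2, Nr4a3, Ier2 and Ier3. How many of all genes show this pattern was not counted. These responses contain the NS levels on which the genes were chosen, so this list is a description only. For Egr2 the response was 1.35 to 2.02 in the WT cultures and 2.30 to 3.75 in the TNFR2-/- cultures. For Ier3 it was 2.56 to 3.56 and 3.77 to 4.27. Egr1 ran from -1.03 to -0.58 in WT and from -0.20 to 0.23 in TNFR2-/-. Ier2 ran from -1.03 to -0.70 and from -0.35 to 0.17. Egr3 ran from -0.42 to -0.24 in WT and from 0.21 to 1.26 in TNFR2-/-. Nr4a2 ran from 1.15 to 1.24 and from 1.45 to 1.81, and Nr4a3 from 0.053 to 0.18 and from 0.38 to 1.07. Egr4, given above, Nr4a1 (-1.75 to -1.58 and -1.62 to -1.19) and Arc (-1.32 to -1.20 and -1.37 to -0.80) overlapped between genotypes. The estimated difference of responses (TNFR2-/- minus WT) had a median of 0.65 over the 10 genes and was largest for Egr2 (1.40 ± 0.46), Ier3 (1.04 ± 0.30), Egr3 (1.002 ± 0.30) and Egr1 (0.90 ± 0.25). It includes the NS difference for which the genes were chosen, so it is given without a test. Its SEs are from the fit of 4 group means, which left the pairing of cultures out.

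The genes that act with the members, and other early-response genes, were read from lists. Of 9 AP-1 genes tested, which encode the FOS and JUN partners and relatives of early transcription, 5 were called higher and none lower in WT, and 7 and none in TNFR2-/- OPCs. Atf3, a stress-induced member, rose from 2.31 ± 0.55 to 14.7 ± 1.43 FPKM in WT (2.45 ± 0.22, adjusted p = 2.27e-05) and from 1.56 ± 0.46 to 21.95 ± 5.56 in TNFR2-/- OPCs (3.45 ± 0.22, adjusted p = 1.29e-06). Junb rose by 2.06 ± 0.23 in WT (adjusted p = 0.000117) and by 2.88 ± 0.23 in TNFR2-/- (adjusted p = 7.15e-06). The list's median was 0.79 in WT and 1.38 in TNFR2-/-, beside -0.05 and -0.11 over all genes.

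Neither Nab1 nor Nab2, corepressors that bind some EGR proteins, was called in either genotype. Of 6 SRF genes and partners, Srf and Mkl2 were called lower in WT (-0.60 ± 0.15 each, adjusted p = 0.0192 and 0.0197). Mkl2 was also called lower in TNFR2-/- (-0.80 ± 0.15, adjusted p = 0.00291). Srf stood at -0.56 in TNFR2-/-, near its WT value, and was not called there. Of 8 CREB genes and coactivators, 1 was called higher in both genotypes, Crem, which also encodes an inducible repressor of CREB targets. Crem rose from 122.8 ± 3.70 to 1234 ± 124 FPKM in WT (3.32 ± 0.10, adjusted p = 7.43e-09) and from 117.4 ± 16.2 to 904.4 ± 65.6 in TNFR2-/- OPCs (2.95 ± 0.10, adjusted p = 1.74e-08). Rxra, a retinoid X receptor that can pair with Nr4a1 and Nr4a2, fell in both genotypes (-0.68 ± 0.09, adjusted p = 0.000503, and -0.70 ± 0.09, adjusted p = 0.00031), as 1 of 2 tested.

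Feedback genes of the ERK route, which also induces many of the members, were called lower 3 times and higher 0 times of 11 in WT, and lower 2 times and higher 1 time in TNFR2-/-. Dusp6, an ERK phosphatase, fell by 1.08 ± 0.07 on the log2 scale in each genotype (adjusted p = 1.14e-06 in WT and 9.7e-07 in TNFR2-/-). Spry4, an inhibitor of growth factor signaling, differed by -1.15 ± 0.26 (adjusted p = 0.0112) and -1.16 ± 0.26 (adjusted p = 0.0075). Dusp5, a nuclear ERK phosphatase, rose in TNFR2-/- OPCs by 1.31 ± 0.24 (adjusted p = 0.00249) and stood at 0.78 in WT, not called.

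Of 30 other early-response genes, 9 were called higher and 2 lower in WT, and 12 higher and 1 lower in TNFR2-/-. Zfp36, whose protein destabilizes AU-rich RNAs, had the largest rise of the list in both genotypes, from 177.9 ± 28.1 to 2397 ± 149 FPKM in WT (3.76 ± 0.24, adjusted p = 1.34e-06) and from 128.4 ± 53.5 to 2373 ± 310 in TNFR2-/- (4.27 ± 0.24, adjusted p = 4.5e-07). Gadd45b, a stress-response gene, rose by 2.49 ± 0.16 in WT (adjusted p = 1.82e-06), and Csrnp1 by 3.37 ± 0.31 in TNFR2-/- (adjusted p = 2.06e-05). Both were called higher in both genotypes, Gadd45b with 2.75 in TNFR2-/- and Csrnp1 with 2.15 in WT. Sgk1, a kinase induced by glucocorticoids, was lower in both (-0.96 ± 0.16, adjusted p = 0.00222, and -1.53 ± 0.16, adjusted p = 6.71e-05). Klf10 was called lower in WT (-0.98 ± 0.29, adjusted p = 0.042) and stood at -0.81 in TNFR2-/-, not called. Between genotypes after cytokines, Rhob, a small GTPase, was called higher in TNFR2-/- St (0.69 ± 0.13, adjusted p = 0.0218), as 1 of 30, and no gene of the other lists was called.

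All 10 NF-κB feedback genes were called higher in both genotypes, with medians of 2.38 in WT and 2.50 in TNFR2-/-. Tnfaip3 (A20), which restrains NF-κB, rose from 24.7 ± 3.08 to 406.6 ± 35.3 FPKM in WT (4.02 ± 0.19, adjusted p = 1.59e-07) and from 27.5 ± 0.98 to 626.6 ± 221 in TNFR2-/- (4.43 ± 0.19, adjusted p = 7.36e-08). Birc3, an inhibitor of apoptosis, rose by 4.75 ± 0.30 and 4.42 ± 0.30 (adjusted p = 1.51e-06 and 2.23e-06).

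**Figure D4:**
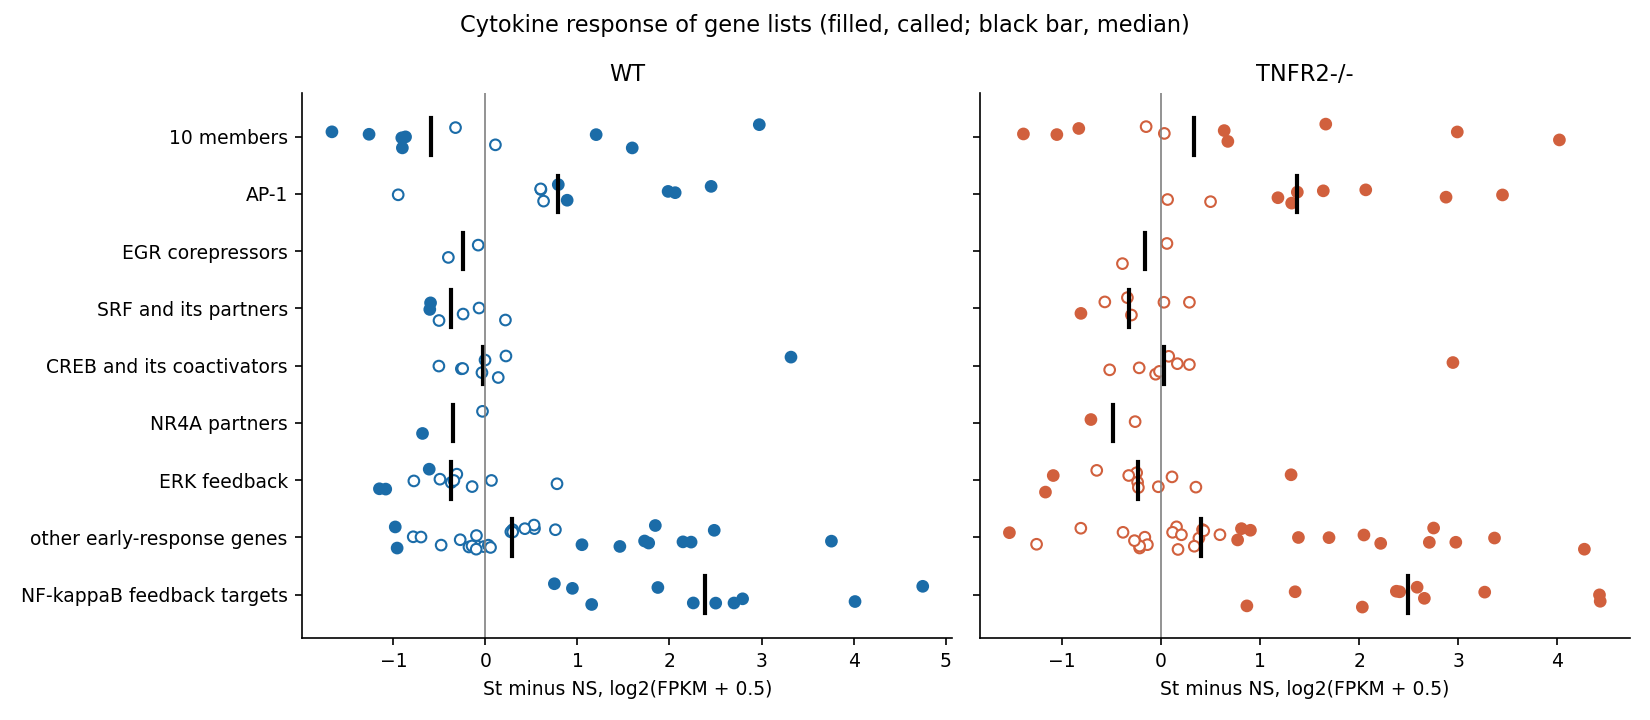
St minus NS on the log2(FPKM + 0.5) scale for the 10 members and the genes of 8 lists in WT (left) and TNFR2-/- OPCs (right). Each point is a gene, filled where called, and black bars are medians. The members lie on both sides of 0 (medians -0.60 and 0.34), while all NF-κB feedback genes lie above it (medians 2.38 and 2.50).

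The mean profile of the 10 genes over the 12 libraries, each gene scaled to mean 0 and SD 1, described few of them well. The root mean square difference from it was 0.482 for Egr1, 0.530 for Ier2 and 0.589 for Egr3, and 0.836 to 1.25 for the other 7, with Ier3 farthest. Among 13554 genes averaging 1 FPKM or more, the 10 nearest genes that are no members were Eml5 (0.236), Ncl (0.357), Slc7a1 (0.361), Rad54l2 (0.364), Tiparp (0.367), Nktr (0.370), Rgs17 (0.378), Sgcd (0.382), Urb2 (0.386) and Gmeb2 (0.389). Eml5, the nearest, was at 284.5 ± 28.1 FPKM in WT NS, 194.5 ± 26.4 in TNFR2-/- NS, 257.8 ± 20.04 in WT St and 232.5 ± 21.04 in TNFR2-/- St, thus highest in WT NS and lowest in TNFR2-/- NS, with smaller differences than Egr1 had.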

How the data were processed

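RNA from 12 OPC libraries was sequenced as paired reads. Per the study's methods, Trim Galore was used for trimming, GRCm38 with Ensembl annotation for alignment and STAR for the number of pairs on each gene. The authors computed FPKM with edgeR and deposited these FPKM, scaled library by library, in an NS and a St table. The methods name a BGI sequencer and the labels Illumina protocols. The 2 tables held 45792 entries each, and 229 that shared a symbol were left out. For 26636 of 26636 genes above 0 in 2 or more libraries, FPKM were whole multiples of a step (tolerance 0.02 reads), which gave the read pairs behind each value. The deposited divisor of a gene was unlike its annotated exon length (95 against 4406 bases for Egr3), so levels between genes use exon length.

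Log2(FPKM + 0.5) of the 18081 genes that averaged 0.1 FPKM or more was fitted by 4 group means in limma 3.58.1 (R 4.3.3) with a mean-dependent prior and Benjamini-Hochberg adjustment. The fit was tested on simulated data for TNFR2-/- St against WT St, with the same relative spread for all genes. It called 63 of 100 genes changed 2-fold, 95 of 100 changed 4-fold and 5 unchanged genes. Changes of 2-fold or less can thus go uncalled. Tests were 2-sided. Sequences and tables were handled in Python 3.11.15. The members and lists were chosen with earlier results of these data known. Named genes were all members, up to 2 called genes per list, direction and comparison with groups that did not overlap, and the 10 nearest profiles.

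Replicate numbers were checked for pairing: same-numbered NS and St libraries of a genotype deviated together from their group means (r = 0.338 to 0.649 in 6 pairs, 13554 genes), and other numbers did not (-0.455 to 0.088 in 12 pairs). NS and St libraries of a number were therefore taken as a culture. The main fit left this pairing out, so its SEs and p-values are those of unpaired groups. Culture as a block was an alternative. Nothing states that the 3 cultures of a group came from separate litters, so p-values measure the spread between these cultures. Alternatives were other pseudocounts, filters, scalings, priors, weights, blocks, call rules, a count-based fit and each library left out. Leaving out TNFR2-/- culture 5 was added after seeing the data.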

Additional observations from a re-analysis of the deposited data

Results flagged for a closer look

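Egr3 moved in opposite directions in the genotypes in every culture. St minus NS was -0.24, -0.42 and -0.31 on the log2 scale in WT cultures 2, 3 and 4, and 0.21, 0.56 and 1.26 in TNFR2-/- cultures 2, 4 and 5. The estimated difference of the responses was 1.002 ± 0.30 (SE of the fit without pairing, n = 3 cultures per genotype). This difference was not tested, since it contains the NS levels on which the genes were chosen. No other member moved in opposite directions in all 6 cultures.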

How the results depend on the processing

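In WT, 8 members were called in all alternatives but 3, and 7 in those, which left out 1 library each (7 to 8). In TNFR2-/-, 8 were called in the main fit and 5 in a fit over the 6 libraries compared, where fewer libraries estimate the spread; leaving out 1 library gave 5 to 8, and leaving out culture 5 gave 6. Between genotypes after cytokines, 1 was called by array weights and 1 by voom on recovered reads, both times Nr4a2, the cause was not tested, and leaving out libraries gave 0 to 0. The NS median ran from -1.03 to -0.50 and the response median from 0.52 to 0.85 without 1 library.

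With culture as a replicate block, 8 members were called in WT and 8 in TNFR2-/- OPCs, and no call of a member changed. With the number as a replicate block across genotypes, which do not share cultures, the NS median was -0.57. Uncalled values near 0 changed sign when 1 library was left out: Egr1 in TNFR2-/- OPCs ran from -0.084 (without NS replicate 5 of that genotype) to 0.21 and was -0.060 without culture 5, Ier2 in TNFR2-/- OPCs from -0.33 to 0.035 (without NS replicate 4), and Egr2 between genotypes after cytokines from -0.011 (without St replicate 4 of TNFR2-/-) to 0.11. Egr3 lost its call in TNFR2-/- OPCs in 11 of 25 alternatives (adjusted p up to 0.164), Nr4a3 in 8 (up to 0.200) and Arc in 2 (up to 0.0882).

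Over all genes, voom called 1426 in WT, 1945 in TNFR2-/- and 436 between genotypes after cytokines, where the main fit called 1361, 1824 and 325. Calling by adjusted p alone gave 2903, 4695 and 985. Between genotypes after cytokines, 39 were called without WT St replicate 4 and 129 without culture 5. Precision is limited by 3 cultures per group; the member with the fewest reads, Egr4, had 61 to 220 per library.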
